A study of Mus musculus with 10 samples.

Results

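The 50 genes described here encode the enzymes of the urea cycle and of amino acid breakdown in the hepatocyte. They were taken from a list of gene symbols and sorted by the amino acid they act on. No measured value was used as a rule for the choice, but it was made with earlier results of these data known. All 50 were found among the 18055 gene IDs that the deposited tables list, and all 50 passed the filter on low counts that left 14097 genes for testing. RNA sequencing was done on primary hepatocytes of wild-type C57BL/6 mice, cells released from the liver with collagenase, plated on collagen I and held in serum-free medium overnight before treatment. There were 5 groups of 2 libraries each. Vehicle hepatocytes received neither fatty acid nor NTP, PA hepatocytes received 200 uM palmitate and LA hepatocytes 12 uM linoleate for 24 h, and PA+NTP and LA+NTP hepatocytes were first treated with Neurotropin (NTP) for 1 h. PA is a saturated and LA a polyunsaturated free fatty acid (FFA), and their doses differed, so that the kind of fatty acid and its dose cannot be told apart. The labels do not say whether 2 libraries of a group came from separate mice or cultures, so that p-values measure the spread between these samples, which may be technical.

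Amino acids that are not used for protein lose their nitrogen and leave carbon skeletons that enter gluconeogenesis, the citric acid cycle or ketone body synthesis. Transaminases pass the amino group to glutamate, glutamate dehydrogenase releases it as ammonia, and the urea cycle, which starts in the mitochondrial matrix and ends in the cytosol, turns ammonia into urea. The liver is the main site of the cycle and of the breakdown of tyrosine, tryptophan, histidine and methionine, while the branched-chain amino acids are first transaminated in muscle. Periportal hepatocytes hold most of the urea cycle and pericentral hepatocytes hold glutamine synthetase. These enzymes are known to be under the control of glucagon, glucocorticoids and liver transcription factors, and their mRNAs fall when hepatocytes are kept in culture.

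The libraries held 13142588 to 60046937 expected counts, and the shallowest was PA replicate 1. Hepatocyte markers were abundant in every library, with Alb, which encodes albumin, between 1929 and 2819 FPKM (fragments per kilobase of transcript, scaled to the library's size), and the 7 hepatocyte markers summed to 6809 to 7392 FPKM in PA, 7759 to 9197 in PA+NTP and 9274 to 11049 in the other groups. Among the other cell types, Cd68 stood at 122 to 287 FPKM and Spp1 at 398 to 691, while the Kupffer cell marker Adgre1 stayed at 0.34 to 1.12, the bile duct keratins Krt19 and Krt7 at 0 to 0.92 and the 6 lymphocyte markers together at 0.40 to 0.79. The 8 stellate cell markers summed to 25.9 to 34.2 FPKM and the 7 endothelial markers to 28.3 to 41.4. With PA, 3 of 7 hepatocyte markers (Apoa1, Ttr and Ahsg), 4 of 8 stellate markers, 1 of 6 tested Kupffer cell markers and 1 of 4 tested bile duct markers were called lower than in Vehicle, and 1 Kupffer cell and 1 lymphocyte marker higher. With LA, 1 stellate and 1 Kupffer cell marker were lower and none was higher. The part of these shifts in the results below was not tested. In bulk RNA, fewer cells of a type and less RNA per cell cannot be told apart. The 2 PA+NTP libraries differed most, with 12 of the 50 genes apart by 1.5-fold or more, against 2 to 5 in the other groups.

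The 50 genes spanned more than 3 orders of magnitude in level. Glud1, encoding glutamate dehydrogenase, averaged 423 FPKM over the 10 libraries, rank 185 of all genes by mean FPKM, followed by the aminotransferases Got2 (152 FPKM) and Gpt2 (120 FPKM) and by Ass1 (105 FPKM), encoding argininosuccinate synthetase. Another 26 genes averaged 10 to 100 FPKM and 16 averaged 1 to 10. The remaining 4 averaged under 1 FPKM, namely Arg1 (0.628), Haao (0.319), Hal (0.850) and Uroc1 (0.558). Several enzymes that are highly expressed in liver stood low beside Alb, among them Cps1 (3.32 FPKM), Otc (3.08), Hpd (2.78), Agxt (1.80), Bhmt (1.32) and Sds (1.03), and they did so in Vehicle as well. Haao was read from 3 to 36 counts a library and Arg1 from 13 to 56, so that only large changes were detectable for them at this depth.

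**Figure D1:**
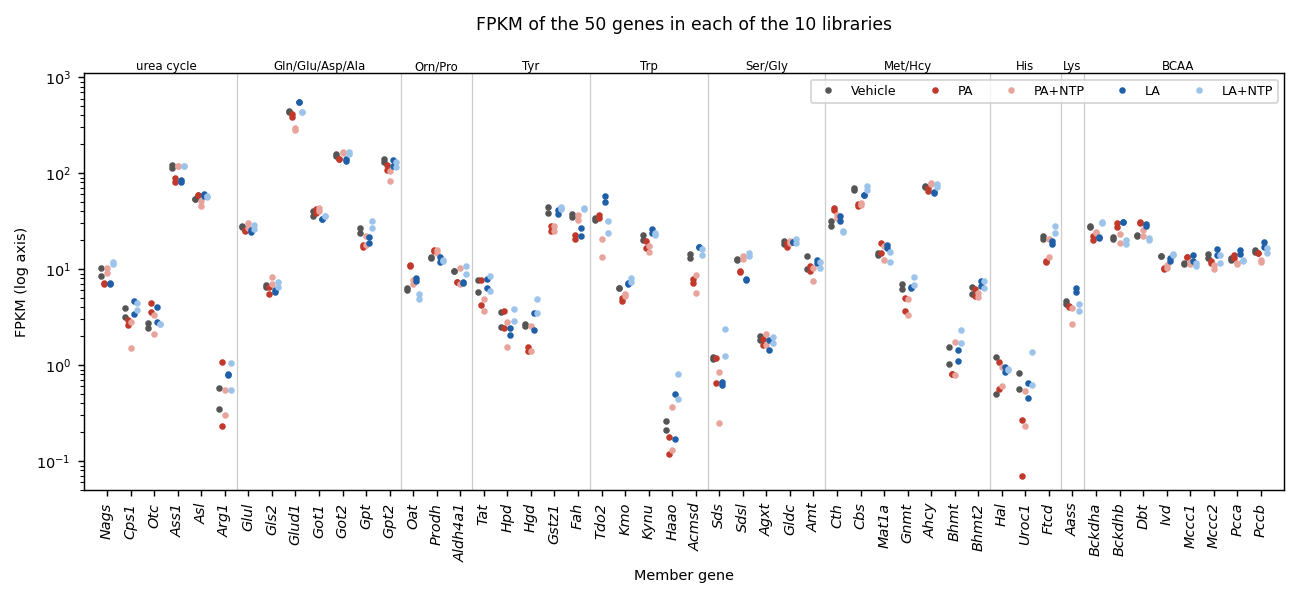
FPKM of each of the 50 genes (log axis) in the 10 libraries, coloured by group and ordered by amino acid, with each point a library. Glud1 lies highest, between 279 and 550 FPKM, and Haao, Uroc1, Arg1 and Hal lie around or below 1 FPKM in most libraries.

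Against Vehicle, PA lowered 7 of the 50 genes and raised 2, where called means a fold of 1.5 or more together with an edgeR quasi-likelihood p, adjusted by Benjamini-Hochberg, under 0.05. The 7 were Hgd, Gstz1 and Fah of tyrosine breakdown, Acmsd of tryptophan breakdown, Uroc1 and Ftcd of histidine breakdown and Gnmt of methionine breakdown, and the 2 raised were Otc and Oat, which both act on ornithine. Of all 14097 genes tested, 8.92% were called lower and 6% higher with PA, so that 7 and 2 of 50 are not far from the share over all genes. LA lowered 1 of the 50 genes, Sdsl (7.11% of all genes were lower), and raised 2, Tdo2 and Bckdhb (3.53% of all were higher). The median log2 fold change of the 50 was -0.15 with PA and 0.07 with LA, beside -0.01 over all genes in both comparisons. The spread from library to library was large for these counts. Without Vehicle replicate 1, 4 genes were lower with PA, and without PA replicate 2, 3 were. The raised genes numbered 1 without Vehicle replicate 2 or PA replicate 1, the genes lower with LA 2 without LA replicate 1, and those higher with LA 1 without Vehicle replicate 2. The median with PA was -0.26 without Vehicle replicate 2 and -0.28 without PA replicate 1. The median with LA was 0.18 without Vehicle replicate 1, -0.065 without Vehicle replicate 2 and -0.015 without LA replicate 1. A NOISeq rule was also run here, with a fold of 1.5 and a probability of 0.95. It called none of the 50 genes in any comparison. As run here, it called 0.00709% to 0.787% of all genes in each direction of a comparison. It recovered 21.5% of genes with a fold of 2 in simulated PA and Vehicle libraries, so that its 0 says little about these genes. The study states the same thresholds but reports far more changed genes, so that its calls were not reproduced here.

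NTP given before PA lowered Otc, Oat and Tdo2 relative to PA alone, 3 of 50 where 5.11% of all genes were lower, and raised Fah, 1 of 50 where 8.74% were higher. NTP given before LA lowered Oat, Tdo2, Aass and Bckdhb relative to LA alone, 4 of 50 against 7.57% of all genes, and raised Nags, Fah, Sds and Sdsl, 4 of 50 against 11.7% of all genes. Each NTP comparison shares its FFA libraries with the comparison of that FFA with Vehicle, so that the 2 are not independent. The number lowered by NTP with PA was 7 without PA+NTP replicate 1. The number raised was 0 without PA replicate 2 or without PA+NTP replicate 1, 2 without PA replicate 1 or either LA+NTP replicate, and 4 without PA+NTP replicate 2. The number lowered by NTP with LA was 2 without LA replicate 1. The median of the 50 was -0.07 with NTP and PA (0.01 over all genes), and -0.21 without PA+NTP replicate 1. With NTP and LA it was 0.04 (0.01 over all genes), and -0.010 without LA+NTP replicate 1. Over the 4 comparisons, 15 genes were called at least once and 35 never.

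**Figure D2:**
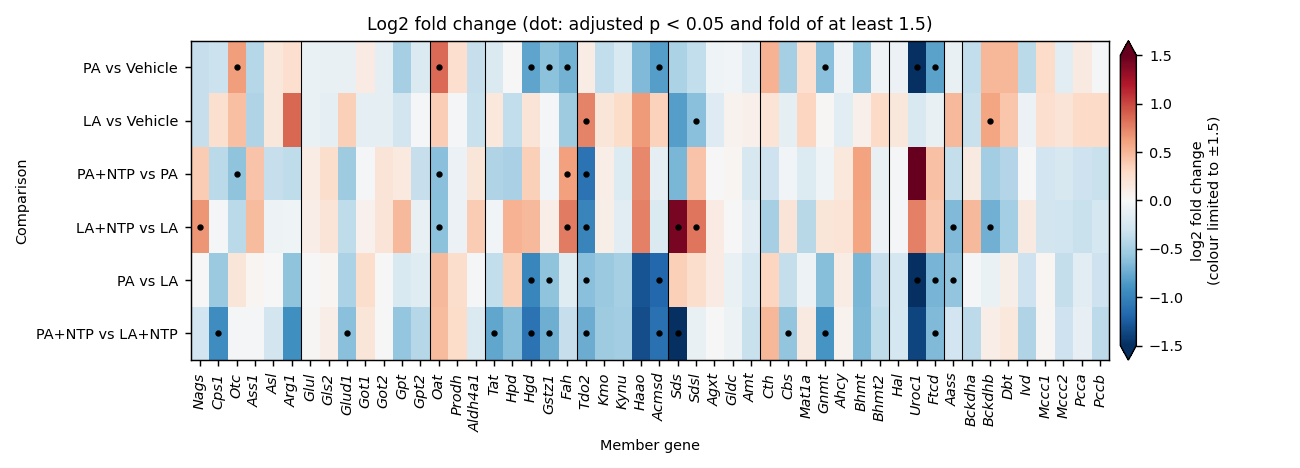
Log2 fold change of each gene (columns, ordered by amino acid, black lines between amino acids) in 6 comparisons (rows), with blue lower, red higher and the colour limited at 1.5 in both directions. A dot marks a call, and in the row of PA against Vehicle 7 blue cells and 2 red cells carry one.

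Within the urea cycle, PA raised 1 of 6 genes (6% of all genes) and lowered none (8.92%), and LA changed none. NTP lowered 1 relative to PA (5.11%) and raised 1 relative to LA (11.7%). Otc, encoding ornithine transcarbamylase, which joins ornithine to carbamoyl phosphate in the matrix, lies at chrX:10252230-10321024. It was at 2.46 and 2.72 FPKM in Vehicle, 4.42 and 3.58 in PA, 3.30 and 2.10 in PA+NTP, 4.05 and 2.79 in LA, and 2.66 and 2.70 in LA+NTP. Both PA libraries were above both Vehicle libraries, and the PA+NTP libraries were below the PA libraries. Such separation of 2 libraries from 2 was common. By scaled counts, 36.9% of all tested genes lay wholly below Vehicle with PA and 36.4% wholly above. The shares were 35.7% and 35.5% with LA, 34.2% and 34.3% with NTP and PA, and 37.7% and 38.7% with NTP and LA. Here and below, groups without overlap are therefore only a description of the values. Otc rose with PA (log2 fold change 0.63 ± 0.22 SE, edgeR adjusted p = 0.0306) and was lower with NTP and PA than with PA (log2 fold change -0.61 ± 0.21 SE, edgeR adjusted p = 0.0329). The first call was lost without Vehicle replicate 1 (0.57, edgeR adjusted p = 0.138), without Vehicle replicate 2 (0.71, edgeR adjusted p = 0.0838) or without PA replicate 1 (0.49, edgeR adjusted p = 0.152), and the second without PA replicate 1 (-0.47, edgeR adjusted p = 0.164) or without PA+NTP replicate 2 (-0.34, edgeR adjusted p = 0.236). With LA, Otc differed from Vehicle by 0.45 ± 0.22 on the log2 scale, which did not pass the test (edgeR adjusted p = 0.113). Nags, at chr11:102145513-102149528, makes the N-acetylglutamate that activates carbamoyl phosphate synthetase. Its level was 10.2 and 8.50 FPKM in Vehicle, 7.09 and 7.26 in PA, 10.3 and 9.20 in PA+NTP, 7.18 and 7.03 in LA, and 11.9 and 11.4 in LA+NTP. Both FFA groups lay below the 3 other groups without overlap, and Nags rose with NTP relative to LA (log2 fold change 0.67 ± 0.097 SE, edgeR adjusted p = 5.61e-05) but its differences with PA (-0.34 ± 0.10), LA (-0.35 ± 0.10) and NTP and PA (0.38 ± 0.10) were under the fold of 1.5.

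Cps1, encoding the carbamoyl phosphate synthetase that commits ammonia to the cycle, was at 3.93 and 3.17 FPKM in Vehicle, 2.99 and 2.61 in PA, 2.83 and 1.52 in PA+NTP, 4.61 and 3.39 in LA, and 4.41 and 3.73 in LA+NTP. The 2 PA+NTP libraries were far apart, and Cps1 did not pass the test against Vehicle with PA (log2 fold change -0.32 ± 0.22 SE, edgeR adjusted p = 0.268) or LA (log2 fold change 0.24 ± 0.21 SE, edgeR adjusted p = 0.407), nor with NTP relative to PA (log2 fold change -0.41 ± 0.23 SE, edgeR adjusted p = 0.164) or LA (log2 fold change -0.029 ± 0.20 SE, edgeR adjusted p = 0.923). Without PA+NTP replicate 1, it was called lower with NTP than with PA (-0.89, edgeR adjusted p = 0.00273). Ass1, which joins citrulline to aspartate, was at 122 and 112 FPKM in Vehicle, 89.6 and 81.7 in PA, 120 and 118 in PA+NTP, 84.7 and 81.0 in LA, and 118 and 119 in LA+NTP. Both FFA groups lay below Vehicle and both NTP groups without overlap. The differences were -0.42 ± 0.065 with PA, -0.46 ± 0.065 with LA, 0.42 ± 0.065 with NTP and PA and 0.48 ± 0.064 with NTP and LA on the log2 scale, all under the fold of 1.5 although their edgeR adjusted p ran from 2.76e-05 to 0.000125. Of the Ass1 transcript sequence, 43.1% of the 31-base words occur also in other genes, most of all in Gm5424, so that its level is uncertain. Asl, which splits argininosuccinate, ranged from 45.5 to 60.7 FPKM. Arg1, encoding the arginase that releases urea, was at 0.580 and 0.350 FPKM in Vehicle, 1.08 and 0.230 in PA, 0.550 and 0.300 in PA+NTP, 0.790 and 0.800 in LA, and 1.05 and 0.550 in LA+NTP. The 2 PA libraries held its highest and lowest values, and Arg1 did not pass the test with PA (log2 fold change 0.26 ± 0.67 SE, edgeR adjusted p = 0.784), LA (log2 fold change 0.86 ± 0.61 SE, edgeR adjusted p = 0.285), or NTP relative to PA (log2 fold change -0.38 ± 0.65 SE, edgeR adjusted p = 0.673) or LA (log2 fold change -0.066 ± 0.53 SE, edgeR adjusted p = 0.933).

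Oat and Otc both encode enzymes that act on ornithine, and Oat, encoding ornithine aminotransferase, at chr7:132557475-132576398, was the most strongly raised of the 50 genes with PA. Its level was 6.09 and 6.36 FPKM in Vehicle, 10.8 and 11.1 in PA, 7.07 and 7.75 in PA+NTP, 8.06 and 7.49 in LA, and 4.89 and 5.50 in LA+NTP. PA libraries were the highest of the 5 groups and LA+NTP libraries the lowest, and no group overlapped Vehicle. Oat rose with PA (log2 fold change 0.85 ± 0.10 SE, edgeR adjusted p = 1.88e-05), and it was lower with NTP than without it, with PA (log2 fold change -0.62 ± 0.099 SE, edgeR adjusted p = 0.000168) and with LA (log2 fold change -0.62 ± 0.09980 SE, edgeR adjusted p = 0.000131). The rise with PA held without any 1 library, while the fall with NTP and PA was lost without PA+NTP replicate 1 (-0.54, edgeR adjusted p = 0.00169) and that with NTP and LA without LA replicate 1 (-0.57, edgeR adjusted p = 0.00314) or without LA+NTP replicate 1 (-0.54, edgeR adjusted p = 0.00279), where the fold came under 1.5. Prodh, encoding proline dehydrogenase, ranged from 11.9 to 15.8 FPKM and Aldh4a1, which oxidises the semialdehyde that proline and ornithine yield, from 7.07 to 10.8, with no call in the 4 comparisons.

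None of the 7 genes for glutamine, glutamate, aspartate and alanine was called in the 4 comparisons. Glud1 was at 434 and 449 FPKM in Vehicle, 410 and 387 in PA, 296 and 279 in PA+NTP, 549 and 550 in LA, and 435 and 436 in LA+NTP. PA+NTP libraries were the lowest and LA libraries the highest, with no overlap between any of those groups and Vehicle, and the largest of the 4 differences was that of NTP relative to PA (log2 fold change -0.53 ± 0.057 SE, edgeR adjusted p = 6.55e-06), under the fold of 1.5. Glul, encoding glutamine synthetase, stood at 27.9 and 27.5 FPKM in Vehicle, 24.8 and 25.8 in PA, 30.1 and 26.8 in PA+NTP, 24.2 and 25.8 in LA, and 26.3 and 28.8 in LA+NTP. Its groups lay close together, with log2 differences of -0.095 ± 0.072 for PA, -0.10 ± 0.071 for LA, 0.11 ± 0.071 for NTP and PA and 0.10 ± 0.070 for NTP and LA, of which none passed the test (edgeR adjusted p = 0.306, 0.269, 0.234 and 0.237). Gls2, the liver glutaminase that supplies ammonia to the cycle, was at 6.57 and 6.81 FPKM in Vehicle, 5.49 and 6.47 in PA, 8.20 and 6.94 in PA+NTP, 5.79 and 6.02 in LA, and 6.49 and 7.34 in LA+NTP. None of its differences passed the test, at -0.11 ± 0.11 for PA, -0.14 ± 0.11 for LA, 0.26 ± 0.11 for NTP and PA and 0.19 ± 0.11 for NTP and LA (edgeR adjusted p = 0.468, 0.362, 0.0726 and 0.155). The aminotransferases Got1, Got2, Gpt and Gpt2 ranged from 33.2 to 43.6, 134 to 168, 17.0 to 31.6 and 82.0 to 141 FPKM, respectively.

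Tyrosine breakdown had 3 of its 5 genes lower with PA, where 8.92% of all genes were lower. No amino acid was tested as a set. The 3 genes act in succession after homogentisate is formed. Hgd, at chr16:37579742-37632026, opens the ring of homogentisate, Gstz1, at chr12:87147161-87164723, isomerises maleylacetoacetate, and Fah, at chr7:84585159-84605942, splits fumarylacetoacetate into fumarate and acetoacetate. Fah was at 37.6 and 35.1 FPKM in Vehicle, 23.0 and 20.7 in PA, 36.7 and 32.5 in PA+NTP, 26.5 and 22.1 in LA, and 43.9 and 42.3 in LA+NTP. Both FFA groups lay below Vehicle without overlap, and LA+NTP lay above it. Fah fell with PA (log2 fold change -0.71 ± 0.095 SE, edgeR adjusted p = 3.96e-05), was -0.53 ± 0.093 with LA, just under the fold of 1.5 (edgeR adjusted p = 0.000426), and rose with NTP relative to PA (log2 fold change 0.62 ± 0.094 SE, edgeR adjusted p = 0.000112) and to LA (log2 fold change 0.78 ± 0.090 SE, edgeR adjusted p = 7.11e-06). The fall with PA and the rise with NTP and LA held without any 1 library, while the rise with NTP and PA was lost without PA replicate 2 (0.52, edgeR adjusted p = 0.00519) or without PA+NTP replicate 1 (0.56, edgeR adjusted p = 0.000802). Without LA replicate 1, Fah was called lower with LA (-0.67, edgeR adjusted p = 0.000672).

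Gstz1 was at 44.3 and 38.7 FPKM in Vehicle, 28.0 and 25.1 in PA, 28.3 and 25.0 in PA+NTP, 41.5 and 37.4 in LA, and 44.7 and 42.3 in LA+NTP. The 4 libraries with PA, with or without NTP, lay below all 6 others. Gstz1 fell with PA (log2 fold change -0.62 ± 0.090 SE, edgeR adjusted p = 8.24e-05), and the call was lost without Vehicle replicate 1 (-0.52, edgeR adjusted p = 0.00223) or without PA replicate 2 (-0.54, edgeR adjusted p = 0.00344). LA, NTP with PA and NTP with LA gave -0.018 ± 0.087, -0.039 ± 0.090 and 0.095 ± 0.085, which did not pass the test (edgeR adjusted p = 0.892, 0.763 and 0.374). The exons of Gstz1 overlap those of Pomt2 on the opposite strand, and whether the counting used strand is not given in the sources used here. Hgd was at 2.67 and 2.58 FPKM in Vehicle, 1.56 and 1.41 in PA, 2.54 and 1.40 in PA+NTP, 3.49 and 2.30 in LA, and 4.87 and 3.46 in LA+NTP. The PA libraries lay below both Vehicle libraries, and PA+NTP replicate 2 was as low as PA. Hgd fell with PA (log2 fold change -0.79 ± 0.31 SE, edgeR adjusted p = 0.0479), a call that was lost without Vehicle replicate 1 (-0.77, edgeR adjusted p = 0.132), without Vehicle replicate 2 (-0.81, edgeR adjusted p = 0.133), without PA replicate 1 (-0.85, edgeR adjusted p = 0.0901) or without PA replicate 2 (-0.69, edgeR adjusted p = 0.246). Its differences with LA (0.19 ± 0.28), NTP and PA (0.36 ± 0.30) and NTP and LA (0.48 ± 0.26) did not pass the test (edgeR adjusted p = 0.620, 0.367 and 0.138), except the last without LA replicate 1 (0.86, edgeR adjusted p = 0.0486). Tat, the aminotransferase that opens the pathway, was at 7.67 and 5.78 FPKM in Vehicle, 7.63 and 4.21 in PA, 4.90 and 3.64 in PA+NTP, 7.93 and 6.39 in LA, and 8.51 and 5.98 in LA+NTP. The PA+NTP libraries lay below Vehicle, and the other groups overlapped it. It gave -0.22 ± 0.25, 0.15 ± 0.24, -0.45 ± 0.25 and -0.041 ± 0.23 in the 4 comparisons, and none passed the test (edgeR adjusted p = 0.503, 0.652, 0.169 and 0.900) but for NTP and PA without PA replicate 2 (-0.91, edgeR adjusted p = 0.0149). Hpd, which makes homogentisate, ranged from 1.55 to 3.84 FPKM.

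Histidine breakdown had 2 of its 3 genes lower with PA (8.92% of all genes). Ftcd, at chr10:76575648-76590338, moves the formimino group of histidine to tetrahydrofolate, and it was at 22.2 and 20.6 FPKM in Vehicle, 12.0 and 11.9 in PA, 20.4 and 13.5 in PA+NTP, 19.9 and 18.5 in LA, and 28.4 and 24.0 in LA+NTP. The PA libraries lay below all others, and the 2 PA+NTP libraries were spread between PA and Vehicle. Ftcd fell with PA (log2 fold change -0.81 ± 0.14 SE, edgeR adjusted p = 0.000364), without any 1 library as well. Its differences with LA (-0.11 ± 0.14) and with NTP relative to PA (0.44 ± 0.14) or LA (0.41 ± 0.13) were not called (edgeR adjusted p = 0.544, 0.0195 and 0.0190), except NTP with PA without PA+NTP replicate 2 (0.69, edgeR adjusted p = 9.29e-05). Uroc1, at chr6:90333239-90364551, encodes urocanase and was at 0.820 and 0.560 FPKM in Vehicle, 0.270 and 0.0700 in PA, 0.540 and 0.230 in PA+NTP, 0.650 and 0.460 in LA, and 1.36 and 0.620 in LA+NTP. It was read from 12 and 9 counts in the PA libraries against 52 and 51 in Vehicle. Uroc1 fell with PA (log2 fold change -2.36 ± 0.62 SE, edgeR adjusted p = 0.00670), the largest fold of the 50 genes, but the call was lost without PA replicate 2 (-1.29, edgeR adjusted p = 0.190), and its log2 value ranged from -3.27 to -1.29 as single libraries were left out. Uroc1 was -0.23 ± 0.49 with LA, 1.504 ± 0.64 with NTP and PA and 0.75 ± 0.45 with NTP and LA (edgeR adjusted p = 0.742, 0.0724 and 0.181). The NTP and PA difference was called without PA replicate 1 (2.41, edgeR adjusted p = 0.0240), PA+NTP replicate 2 (1.98, edgeR adjusted p = 0.0234), LA+NTP replicate 1 (1.49, edgeR adjusted p = 0.0495) or LA+NTP replicate 2 (1.49, edgeR adjusted p = 0.0479), and the NTP and LA difference without LA+NTP replicate 2 (1.23, edgeR adjusted p = 0.0487). Hal, the ammonia lyase that opens the pathway, was at 1.21 and 0.5 FPKM in Vehicle, 1.07 and 0.560 in PA, 0.95 and 0.600 in PA+NTP, 0.960 and 0.840 in LA, and 0.910 and 0.900 in LA+NTP. Its highest and lowest values were the 2 Vehicle libraries, and none of its log2 differences passed the test, at -0.092 ± 0.41, 0.17 ± 0.39, -0.029 ± 0.40 and -0.034 ± 0.36 (edgeR adjusted p = 0.875, 0.759, 0.962 and 0.951).

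Tryptophan breakdown moved in both directions. Tdo2, at chr3:81958412-81975728, encodes tryptophan dioxygenase, the first enzyme, and it was at 34.3 and 32.6 FPKM in Vehicle, 36.8 and 34.0 in PA, 20.9 and 13.2 in PA+NTP, 57.6 and 50.4 in LA, and 32.0 and 24.0 in LA+NTP. LA libraries were the highest, the PA libraries overlapped Vehicle, and both NTP groups lay below Vehicle. Tdo2 rose with LA (log2 fold change 0.74 ± 0.16 SE, edgeR adjusted p = 0.00168), gave 0.11 ± 0.16 with PA (edgeR adjusted p = 0.604), and fell with NTP relative to PA (log2 fold change -1.11 ± 0.16 SE, edgeR adjusted p = 8.65e-05) and to LA (log2 fold change -0.9960 ± 0.15 SE, edgeR adjusted p = 8.62e-05). All 3 calls held without any 1 library. Acmsd, at chr1:127729413-127767564, encodes the decarboxylase that draws tryptophan carbon away from NAD synthesis, and was at 14.4 and 13.2 FPKM in Vehicle, 7.26 and 7.84 in PA, 8.68 and 5.63 in PA+NTP, 17.0 and 17.1 in LA, and 16.3 and 14.0 in LA+NTP. The 4 libraries with PA lay below the 6 others without overlap. Acmsd fell with PA (log2 fold change -0.83 ± 0.15 SE, edgeR adjusted p = 0.000383), also without any 1 library, and gave 0.35 ± 0.14 with LA, -0.15 ± 0.15 with NTP and PA and -0.21 ± 0.13 with NTP and LA, which were not called (edgeR adjusted p = 0.0519, 0.452 and 0.192). Kmo and Kynu, which act on kynurenine, ranged from 4.71 to 8.01 and 15.2 to 26.5 FPKM and were not called.

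The promoters of Fah and Ftcd, which fell with PA in every fit that left out a library, and of Oat and Tdo2, which fell with NTP, are shown to set their sequences side by side. Acmsd also fell with PA in every such fit, but its promoter is not shown. Each line holds the 150 bases before the RefSeq start (GRCm38.p6), written 5′ to 3′ on the gene's strand, with the matched motifs in capitals.
Fah (chr7:84605943-84606092, minus strand): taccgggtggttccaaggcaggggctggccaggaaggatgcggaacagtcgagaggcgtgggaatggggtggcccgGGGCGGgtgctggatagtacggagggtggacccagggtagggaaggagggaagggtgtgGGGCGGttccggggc
Ftcd (chr10:76575498-76575647, plus strand): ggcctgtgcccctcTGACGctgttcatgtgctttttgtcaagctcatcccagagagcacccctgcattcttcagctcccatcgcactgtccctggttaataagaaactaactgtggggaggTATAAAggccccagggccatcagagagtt
Tdo2 (chr3:81975729-81975878, minus strand): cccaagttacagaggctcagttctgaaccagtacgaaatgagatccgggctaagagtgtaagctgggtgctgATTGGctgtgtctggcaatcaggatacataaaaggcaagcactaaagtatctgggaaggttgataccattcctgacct
Oat (chr7:132576399-132576548, minus strand): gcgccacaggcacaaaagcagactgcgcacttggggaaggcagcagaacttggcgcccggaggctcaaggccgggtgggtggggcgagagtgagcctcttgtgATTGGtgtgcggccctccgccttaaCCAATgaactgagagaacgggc
A set of 6 short motifs was searched on both strands in 32851 promoters of this length, and 39 of the 50 genes had a sequence. TATAAA, the TATA box, was found in Ftcd from 29 to 24 bases before the start, and in 7.57% of all promoters. GGGCGG, the GC box, occurred 2 times in Fah (28.6% of all promoters), and TGACG, the half-site of the cyclic AMP response element, 1 time in Ftcd (13.3%). CCAAT occurred in Tdo2 and 2 times in Oat (24.5%), where the capitals ATTGG mark it on the other strand. Of the 39 genes with a sequence, called or not, 20 held CCAAT (51.3%). The GC box was in 38.5% of the 39, TGACG in 12.8% and the TATA box in 10.3%. TTGCNNAA, a C/EBP motif, and CAAAGTC, the core of an HNF4 site, were in none of the 4 and in 5.46% and 2.25% of all promoters. None of the matches shown overlapped another. No motif was shared by Fah and Ftcd, TGACG was found in the promoter of Acmsd as well, and a match is only a description of the letters.

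**Figure D3:**
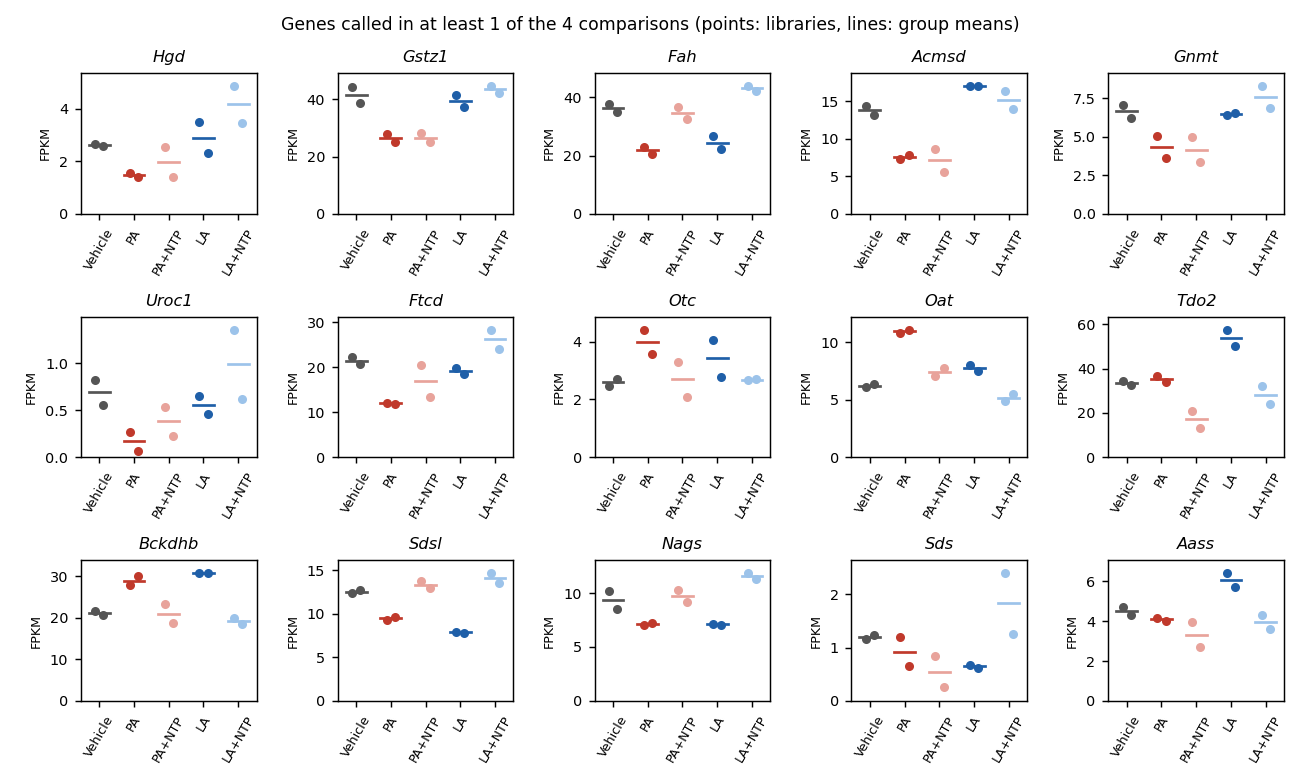
FPKM (linear axis from 0) of the 15 genes called in at least 1 of the 4 comparisons, with a point for each library and a line for the mean of each group of 2. The Oat panel peaks in PA, the Tdo2 panel in LA, and the Fah panel shows both FFA groups below Vehicle and both NTP groups.

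Methionine breakdown had 1 of its 7 genes lower with PA (8.92% of all genes). Gnmt, at chr17:46725664-46729211, uses up S-adenosylmethionine by methylating glycine, and was at 7.06 and 6.21 FPKM in Vehicle, 5.05 and 3.63 in PA, 4.95 and 3.36 in PA+NTP, 6.38 and 6.55 in LA, and 8.28 and 6.84 in LA+NTP. Both PA groups lay below Vehicle. Gnmt fell with PA (log2 fold change -0.63 ± 0.21 SE, edgeR adjusted p = 0.0269), but the call was lost without Vehicle replicate 1 (-0.53, edgeR adjusted p = 0.138), without Vehicle replicate 2 (-0.72, edgeR adjusted p = 0.0533) or without PA replicate 2 (-0.35, edgeR adjusted p = 0.341). With LA (0.013 ± 0.20) and with NTP relative to PA (-0.065 ± 0.22) or LA (0.18 ± 0.19), Gnmt was not called (edgeR adjusted p = 0.967, 0.837 and 0.459). Mat1a, which makes S-adenosylmethionine in liver, was at 14.6 and 13.9 FPKM in Vehicle, 18.8 and 14.7 in PA, 17.4 and 12.5 in PA+NTP, 17.8 and 16.7 in LA, and 14.98 and 11.8 in LA+NTP. It was not called with PA (0.25 ± 0.15), LA (0.32 ± 0.14), NTP and PA (-0.21 ± 0.14) or NTP and LA (-0.41 ± 0.14; edgeR adjusted p = 0.187, 0.0915, 0.273 and 0.0240), except the last without LA+NTP replicate 1 (-0.59, edgeR adjusted p = 0.00732). Cth and Cbs, which take homocysteine to cysteine, ranged from 24.3 to 43.7 and 45.8 to 72.7 FPKM, Ahcy, which hydrolyses S-adenosylhomocysteine, from 61.7 to 79.6, and the betaine methyltransferases Bhmt and Bhmt2 from 0.79 to 2.31 and 5.19 to 7.58. Sequence shared with other genes was largest in this group, at 71.4% of the 31-base words of Ahcy (most of all with Gm4737), and 29.8% of those of Bhmt were shared.

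Serine and glycine breakdown had 2 of its 5 genes called, the related dehydratases Sds and Sdsl. With LA, 1 was lower (7.11% of all genes), and with NTP and LA 2 were higher (11.7%). Sdsl, at chr5:120458193-120472825, was at 12.4 and 12.7 FPKM in Vehicle, 9.25 and 9.66 in PA, 13.8 and 12.9 in PA+NTP, 7.94 and 7.79 in LA, and 14.7 and 13.6 in LA+NTP. The LA libraries were the lowest, PA followed, and both NTP groups lay above Vehicle. Sdsl fell with LA (log2 fold change -0.63 ± 0.10 SE, edgeR adjusted p = 0.000212), was -0.37 ± 0.10 with PA and 0.43 ± 0.099 with NTP and PA, under the fold of 1.5, and rose with NTP relative to LA (log2 fold change 0.80 ± 0.096 SE, edgeR adjusted p = 1.02e-05). Both calls held without any 1 library. Sds, encoding serine dehydratase, at chr5:120476547-120483932, was at 1.16 and 1.23 FPKM in Vehicle, 1.19 and 0.650 in PA, 0.850 and 0.250 in PA+NTP, 0.670 and 0.620 in LA, and 2.40 and 1.26 in LA+NTP, from 9 to 99 counts. Its LA+NTP libraries were the highest and its PA and PA+NTP libraries overlapped. Sds rose with NTP relative to LA (log2 fold change 1.42 ± 0.47 SE, edgeR adjusted p = 0.0206), a call lost without LA replicate 1 (1.47, edgeR adjusted p = 0.0907), without LA replicate 2 (1.36, edgeR adjusted p = 0.0928) or without LA+NTP replicate 1 (0.91, edgeR adjusted p = 0.197), and gave -0.47 ± 0.51 with PA, -0.83 ± 0.51 with LA and -0.68 ± 0.54 with NTP and PA (edgeR adjusted p = 0.479, 0.214 and 0.333), the last called without PA+NTP replicate 1 (-1.79, edgeR adjusted p = 0.0407). The exons of Sds overlap those of Plbd2 on the opposite strand. Agxt, which removes glyoxylate, and Gldc and Amt of the glycine cleavage system ranged from 1.44 to 2.11, 17.0 to 20.7 and 7.45 to 13.9 FPKM.

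Lysine and the branched-chain amino acids gave calls with LA and with NTP and LA. Aass, at chr6:23072173-23132986, encodes the first enzyme of lysine breakdown and was at 4.70 and 4.31 FPKM in Vehicle, 4.16 and 4.03 in PA, 3.95 and 2.69 in PA+NTP, 6.42 and 5.72 in LA, and 4.31 and 3.63 in LA+NTP. The LA libraries were the highest. Aass fell with NTP relative to LA (log2 fold change -0.66 ± 0.14 SE, edgeR adjusted p = 0.00108), a call lost without LA replicate 1 (-0.58, edgeR adjusted p = 0.0209) or without LA+NTP replicate 2 (-0.54, edgeR adjusted p = 0.0200), and its differences with PA (-0.11 ± 0.15), LA (0.48 ± 0.14) and NTP and PA (-0.36 ± 0.15) were not called (edgeR adjusted p = 0.596, 0.0151 and 0.0659), except the last without PA+NTP replicate 1 (-0.64, edgeR adjusted p = 0.00209). Bckdha, at chr7:25629852-25658782, Bckdhb, at chr9:83925111-84124240, and Dbt encode the subunits of the branched-chain ketoacid dehydrogenase complex. Bckdhb was at 21.5 and 20.6 FPKM in Vehicle, 27.8 and 30.0 in PA, 23.3 and 18.7 in PA+NTP, 30.7 and 30.7 in LA, and 19.99 and 18.4 in LA+NTP. Both FFA groups lay above all other libraries. Bckdhb rose with LA (log2 fold change 0.59 ± 0.093 SE, edgeR adjusted p = 0.000184), just over the fold of 1.5 and lost without Vehicle replicate 2 (0.56, edgeR adjusted p = 0.00512), and fell with NTP relative to LA (log2 fold change -0.72 ± 0.090 SE, edgeR adjusted p = 1.41e-05). Its differences with PA (0.50 ± 0.095) and with NTP and PA (-0.53 ± 0.093) were under the fold of 1.5 (edgeR adjusted p = 0.000684 and 0.000368), the latter called without PA+NTP replicate 1 (-0.67, edgeR adjusted p = 5.54e-05).

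Bckdha, the other subunit of the same decarboxylase, was at 27.5 and 28.4 FPKM in Vehicle, 22.1 and 20.3 in PA, 23.6 and 24.4 in PA+NTP, 21.8 and 21.0 in LA, and 30.6 and 31.2 in LA+NTP. Its FFA libraries lay below Vehicle, where those of Bckdhb lay above. Bckdha was not called, at -0.37 ± 0.073 with PA, -0.34 ± 0.072 with LA, 0.13 ± 0.073 with NTP and PA and 0.49 ± 0.070 with NTP and LA (edgeR adjusted p = 0.000895, 0.00184, 0.168 and 4.82e-05). The transcripts of Bckdha hold 58.4% G and C bases and those of Bckdhb 46.1%. Pcca, which carboxylates propionyl-CoA with Pccb, was at 12.6 and 13.0 FPKM in Vehicle, 13.1 and 14.2 in PA, 11.4 and 11.7 in PA+NTP, 16.0 and 14.3 in LA, and 12.6 and 12.1 in LA+NTP, and was not called, at 0.13 ± 0.081, 0.29 ± 0.079, -0.31 ± 0.079 and -0.34 ± 0.076 in the 4 comparisons (edgeR adjusted p = 0.193, 0.00880, 0.00594 and 0.00190). Dbt, Ivd, Mccc1, Mccc2 and Pccb stood between 9.99 and 31.3 FPKM and were not called.

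The base composition of the transcripts moved with the fold changes of the 50 genes. The GC content of their transcripts ranged from 40.0% to 61.8% (median 51.4%, beside 50.5% over all genes tested). Over all tested genes, the deviation of a library from the mean correlated with GC content at a Spearman rho of 0.33 to 0.56 in the Vehicle, PA+NTP and LA+NTP libraries and of -0.47 to -0.56 in the PA and LA libraries. Across the 50 genes, rho between log2 fold change and GC content was -0.33 with PA, -0.78 with LA, 0.45 with NTP and PA and 0.68 with NTP and LA. These are descriptions across genes of the same libraries, which are not independent replicates. With a smooth GC trend removed, PA still lowered 7 of the 50 (5.6% of all genes), namely Hgd, Gstz1, Fah, Acmsd, Uroc1, Ftcd and, in place of Gnmt, Kmo, and raised Oat (3.21%). The rise of Otc with PA came to 0.19 (edgeR adjusted p = 0.555) and the fall of Gnmt to -0.34 (0.249). With LA, none of the 50 was then called in either direction (2.51% lower and 1.04% higher over all genes), with Sdsl at -0.077 (0.640), Tdo2 at 0.39 (0.108) and Bckdhb at 0.37 (0.0173). With NTP and PA, Asl, Gpt2 and Tdo2 were lower (2.16%) and Fah higher (4.31%), with Oat at -0.47 (0.00272) and Otc at -0.14 (0.666). With NTP and LA, 0 of 50 were lower (1.99%) and Fah alone was higher (4.19%), while Tdo2 came to -0.55 (0.0164), Oat to -0.41 (0.00638), Bckdhb to -0.43 (0.00348), Aass to -0.34 (0.0867), Nags to 0.12 (0.354), Sds to 0.9991 (0.131) and Sdsl to 0.094 (0.495). Fah, Acmsd, Gstz1, Hgd, Uroc1, Ftcd and Oat with PA, Tdo2 and Fah with NTP and PA, and Fah with NTP and LA were thus called with and without the GC trend. For PA against LA, Hgd and Aass were not called with the trend removed and the other 5 genes named below were (2.03% of all genes lower). For PA+NTP against LA+NTP, 12 genes were then called (2.26%), without Cbs and with Kmo and Kynu.

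**Figure D4:**
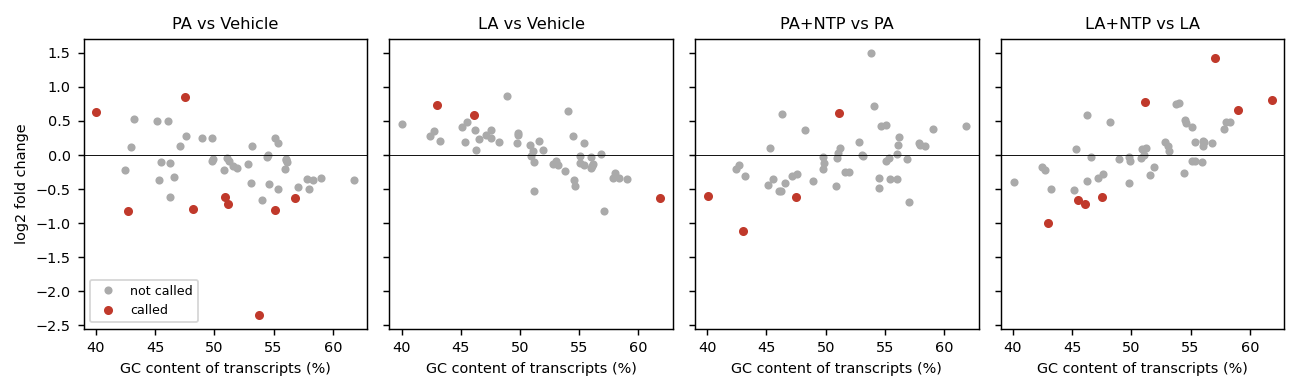
Log2 fold change of each of the 50 genes against the GC content of its transcripts (%) in the 4 comparisons, with called genes in red. The points slope down with LA (rho -0.78) and less so with PA (rho -0.33), and slope up with NTP (rho 0.45 with PA and 0.68 with LA).

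A direct comparison of PA with LA asked where the responses to the 2 FFAs differed, at the doses used. There, 7 of the 50 genes were lower with PA than with LA (2.04% of all genes) and none was higher (1.18%). They were Acmsd (log2 fold change -1.18 ± 0.14 SE, edgeR adjusted p = 0.000145), Hgd (log2 fold change -0.98 ± 0.30 SE, edgeR adjusted p = 0.0484), Uroc1 (log2 fold change -2.12 ± 0.62 SE, edgeR adjusted p = 0.0422), Ftcd (log2 fold change -0.70 ± 0.14 SE, edgeR adjusted p = 0.00622), Tdo2 (log2 fold change -0.63 ± 0.16 SE, edgeR adjusted p = 0.0194), Gstz1 (log2 fold change -0.60 ± 0.090 SE, edgeR adjusted p = 0.000717) and Aass (log2 fold change -0.59 ± 0.15 SE, edgeR adjusted p = 0.0189). The number was 1 without PA replicate 2 and 2 without LA replicate 1. Acmsd, between -1.25 and -1.14 as single libraries were left out, kept its call in all 10 fits. The other 6 lost theirs without PA replicate 2 and without LA replicate 1. Tdo2 and Aass lost it also without PA replicate 1, Uroc1 without LA replicate 2 or either Vehicle replicate, and Hgd without PA replicate 1 or either Vehicle replicate. Leaving out single libraries moved Hgd between -1.27 and -0.60 and Uroc1 between -3.04 and -1.07. DESeq2 called 4, without Tdo2, Uroc1 and Aass. The same question was put to the libraries with NTP. In all, 11 genes were lower with PA+NTP than with LA+NTP (2.45% of all genes) and none higher (1.38%), namely Cps1 (-0.93 ± 0.21), Glud1 (-0.63 ± 0.057), Tat (-0.78 ± 0.24), Hgd (-1.10 ± 0.27), Gstz1 (-0.73 ± 0.086), Tdo2 (-0.74 ± 0.16), Acmsd (-1.11 ± 0.14), Sds (-1.75 ± 0.47), Cbs (-0.59 ± 0.060), Gnmt (-0.89 ± 0.20) and Ftcd (-0.66 ± 0.13), with edgeR adjusted p from 1.14e-05 for Glud1 to 0.0388 for Tat. The number was 17 without PA+NTP replicate 1, 4 without PA+NTP replicate 2 and 3 without LA+NTP replicate 1. Glud1, Gstz1 and Acmsd kept their calls in all 10 of these fits, and the other 8 lost theirs without PA+NTP replicate 2 and without LA+NTP replicate 1. Tat lost it also without Vehicle replicate 1 or either LA replicate.

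The pair of comparisons shares no library. Hgd, Gstz1, Tdo2, Acmsd and Ftcd were lower in both, 71.4% of the genes called without NTP and 45.5% of those called with it, where over all genes the shares were 65.3% and 54.5%. The sign was the same for 42 of the 50 genes (84%, against 69.2% of all genes), and 31 were negative in both. Pearson's r between the log2 differences was 0.69 across the 50 genes and 0.41 across all genes, which are not independent replicates. Lower calls without higher ones were not particular to the 50 genes. Of 48 other enzymes of amino acid breakdown, 6 were lower and 0 higher in each comparison, and of the 7 hepatocyte markers 3 and 0. Of 15 tested genes for ammonia and amino acid transport and partner enzymes, 0 were lower in either, with 2 higher without NTP and 3 with it. These lists were not tested as sets.

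**Figure D5:**
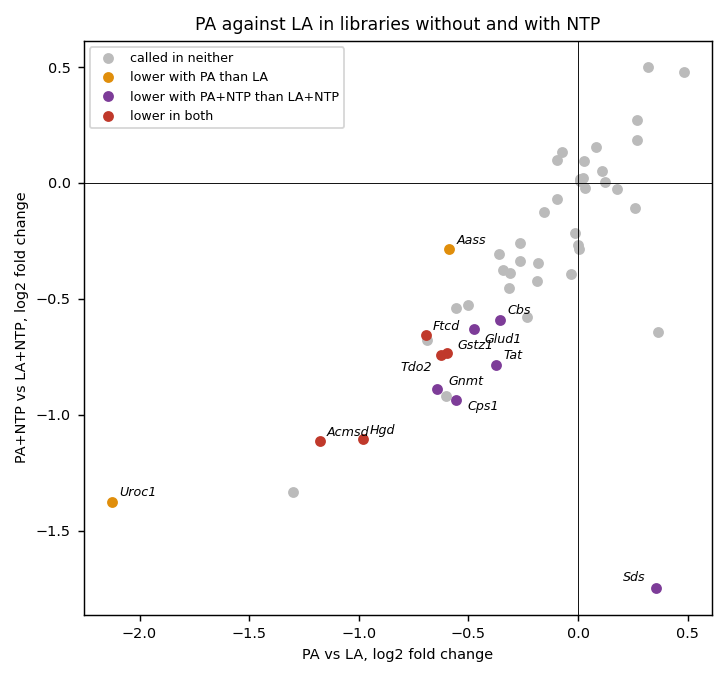
Log2 difference of PA from LA without NTP (horizontal axis) and with NTP (vertical axis) for the 50 genes, each a point. The 5 genes lower in both lie at the lower left, and Acmsd stands at -1.18 without NTP and -1.11 with it.

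Against Vehicle, PA+NTP left 5 of the 50 genes lower and none higher (1.64% of all genes lower), namely Glud1 (log2 fold change -0.64 ± 0.057 SE, edgeR adjusted p = 1.43e-05), Gstz1 (log2 fold change -0.66 ± 0.088 SE, edgeR adjusted p = 0.000344), Tdo2 (log2 fold change -0.9997 ± 0.16 SE, edgeR adjusted p = 0.00152), Acmsd (log2 fold change -0.97 ± 0.14 SE, edgeR adjusted p = 0.000639) and Gnmt (log2 fold change -0.70 ± 0.21 SE, edgeR adjusted p = 0.0465). The number was 3 without Vehicle replicate 1 and 11 without PA+NTP replicate 1. Gstz1 lost its call without Vehicle replicate 1 (fold under 1.5), and Gnmt lost its own in 7 of the 10 fits that left out a library, those without either Vehicle, LA or LA+NTP replicate or without PA+NTP replicate 2, between -0.97 and -0.47 over the 10. LA+NTP against Vehicle gave 0 calls by edgeR (0.0922% of all genes called), with 9 of the 50 at an unadjusted p under 0.05. DESeq2 also called 0, and edgeR without the filter on low counts called 1, Hgd. The difference between the NTP effect with PA and that with LA was called for 0 of the 50 by edgeR, as for 0% of all genes, with 7 of the 50 at an unadjusted p under 0.05. The smallest p was that of Bckdha (log2 difference -0.36 ± 0.10 SE, edgeR adjusted p = 0.629), and Sds had the largest difference (-2.10 ± 0.72, edgeR adjusted p = 0.630). DESeq2 called 0 of the 50 there and edgeR without the filter 1, Sds. Falls and rises with NTP that were called with only one FFA are therefore not shown to differ between the FFAs.

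The genes lower with PA were all among those not assigned here to mitochondria. The assignment was yes or no, so that it does not show enzymes found both inside and outside mitochondria. Of the 50, 21 were assigned to the mitochondrial matrix or inner membrane, of which 0 were lower and 2 higher (Otc and Oat), with a median log2 fold change of -0.11. Of the other 29, 7 were lower and 0 higher, with a median of -0.37. Of all genes, 8.92% were lower and 6% higher with PA. Hgd, Gstz1, Gnmt and Uroc1 among the 7 lost their call when single libraries were left out. The difference between the 2 sets was not tested. By summed FPKM, which weights the abundant genes, the 50 genes took 0.318% and 0.320% of all FPKM in Vehicle, 0.284% and 0.292% in PA, 0.253% and 0.280% in PA+NTP, 0.331% and 0.340% in LA and 0.309% and 0.327% in LA+NTP. The 4 libraries with PA lay below the 6 others.

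By the replicate numbers in the sample titles, the second library of each group was the lower one for most of the 50 genes. For some samples the deposited data carry another number in their name, so that the order of 2 libraries may not mean the same in each group. The second library by title was lower for 37 of 50 in Vehicle, 33 in PA, 37 in PA+NTP, 36 in LA and 41 in LA+NTP, where 46.7% to 51.9% of all tested genes were lower. The median log2 difference between the 2 libraries over the 50 was -0.17 in PA+NTP and between -0.12 and -0.08 in the other groups.

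Other genes of these pathways were counted as well. Of 48 other enzymes of amino acid breakdown, 8 were lower and 1 higher with PA, 1 and 1 with LA, 2 and 1 with NTP and PA, and 3 and 2 with NTP and LA. For these and the following lists, the shares over all genes were 8.92% lower and 6% higher with PA, 7.11% and 3.53% with LA, 5.11% and 8.74% with NTP and PA, and 7.57% and 11.7% with NTP and LA. No list was tested as a set. Dld, the dihydrolipoyl dehydrogenase subunit shared by the ketoacid dehydrogenases and glycine cleavage, was higher with both PA (log2 fold change 0.77 ± 0.060 SE, edgeR adjusted p = 6.39e-07) and LA (log2 fold change 0.72 ± 0.060 SE, edgeR adjusted p = 1.83e-06), and Gamt, which makes creatine, was lower with both PA (log2 fold change -1.72 ± 0.26 SE, edgeR adjusted p = 0.000122) and LA (log2 fold change -0.65 ± 0.23 SE, edgeR adjusted p = 0.0378). Of 15 tested genes for ammonia and amino acid transport and partner enzymes, 1 was lower and 2 higher with PA, 0 with LA, 1 higher with NTP and PA and 2 higher with NTP and LA. The 2 raised with PA were Slc7a2, which carries arginine and ornithine into the cell, and Arg2, the mitochondrial arginase, and they are named after their values were seen. Slc7a2 was at 10.6 and 10.3 FPKM in Vehicle, 23.4 and 23.9 in PA, 24.4 and 19.6 in PA+NTP, 11.4 and 11.0 in LA, and 8.62 and 7.79 in LA+NTP, so that the 4 libraries with PA stood above the 6 others. Slc7a2 was higher with PA than Vehicle (log2 fold change 1.21 ± 0.084 SE, edgeR adjusted p = 2.22e-07), and Arg2 likewise (log2 fold change 1.26 ± 0.16 SE, edgeR adjusted p = 2.82e-05).

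Of 15 regulators of these enzymes, 5 were lower with PA, 3 with LA, and none higher with either. NTP raised 3 and lowered 1 relative to PA, and raised 4 and lowered 1 relative to LA. Crebbp, the CREB binding protein, was lower with both PA (log2 fold change -0.69 ± 0.075 SE, edgeR adjusted p = 7.31e-06) and LA (log2 fold change -0.74 ± 0.074 SE, edgeR adjusted p = 5.84e-06). Among markers of liver zones outside the 50 genes, 0 of 4 tested periportal and 0 of 7 pericentral markers were called with PA or with LA. Several stood near the floor, such as Lgr5 (0.01 to 0.11 FPKM), Axin2 (0.11 to 0.35), Slc1a2 (0.30 to 0.63) and Pck1 (0.19 to 0.42). Cdh1, Hsd17b13, Cyp2e1 and Cyp1a2 were higher. Log2 differences of the pericentral markers ran from -2.01 to 0.78 with PA and from -0.47 to 1.11 with LA, so that 0 calls says little about the low ones. NTP raised 1 of each list relative to PA, and 0 periportal and 1 pericentral markers relative to LA. Of the cell type lists, Col1a1, a fibroblast collagen, was lower with both PA (log2 fold change -0.93 ± 0.18 SE, edgeR adjusted p = 0.000738) and LA (log2 fold change -0.74 ± 0.17 SE, edgeR adjusted p = 0.00344).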

How the data were processed

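Total RNA was taken with TRIzol from the hepatocytes and sequenced at BGI. The authors aligned reads to mm10 with HISAT and Bowtie2 and estimated levels with RSEM. Tool versions and strand setting were not given in the sources used here. The deposited expected counts are RSEM estimates that need not be whole, and the deposited FPKM values, which the study's methods call RPKM, are fragments per kilobase of transcript, scaled to library size. Genes are listed from an FPKM of 0.01, and a gene not listed in a library was taken as 0.

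Expected counts were rounded and tested in edgeR 4.0.16 (R 4.3.3) with filterByExpr, TMM factors (0.977 to 1.04) and its quasi-likelihood test, over all 10 libraries with group as 1 factor. p-values were adjusted by Benjamini-Hochberg over all 14097 genes tested (3958 dropped). The biological coefficient of variation was 0.0682. SE was the log2 fold change over the root of F. FPKM was read as a level, with no test in the main results. Depth ran from 13142588 to 60046937 expected counts per library, so that genes read from few counts are the least precise. In simulated PA and Vehicle libraries, 165 of 196 genes (84.2%) with a fold of 2 were recovered among 13857 genes, with 1 false call. That simulation held no GC trend. With a GC trend planted that set the PA and LA libraries against the others, edgeR made 910 false calls among 13868 genes. With the trend then removed, edgeR made 2. The planted trend was not fitted to these libraries, so that these counts are not rates for the data here.

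The 50 genes, the companion lists and the tests were chosen with earlier results of these data known. Values in every library are given for genes called in the 4 main comparisons and for 12 others chosen by name (Cps1, Otc, Ass1, Arg1, Glul, Gls2, Tat, Tdo2, Hal, Mat1a, Bckdha and Pcca, of which Otc and Tdo2 were also called). Glud1 was added after its values were seen. Lists are given as counts, naming genes called with both FFAs (1 regulator is counted but not reported here by name). Apoa1, Ttr, Ahsg, Slc7a2 and Arg2, called with PA only, and the marker genes given by level were named after their values were seen. Alternatives were DESeq2 1.42.0, library-size scaling, 2 other filters, no fold threshold, NOISeq's rule, limma 3.58.1 on log2(FPKM + 1) and log2(FPKM + 0.1), only the groups compared, a replicate block, removal of a GC or gene length trend (loess, span 0.4), and leaving out each library. GC content, shared sequence (31-base words) and overlapping exons came from GENCODE transcripts of the same assembly, and gene positions and promoters from RefSeq (GRCm38.p6). Promoters were found for 39 of the 50 genes, and not for Arg1, Asl, Cps1, Cth, Dbt, Gls2, Gpt, Kynu, Mat1a, Sds and Sdsl. Replicates of a group differed by 3.82 to 16.4 times the counting variance, more than the same library deposited again would give, which does not show separate cultures.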

Additional observations from a re-analysis of the deposited data

Results flagged for a closer look

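The effect of PA and that of LA, each against Vehicle, differed by edgeR's quasi-likelihood test of the difference itself for 7 of the 50 genes, at the doses used. PA and LA doses differed, and both effects share the Vehicle libraries, which drop out of the difference. Acmsd gave a log2 difference of -1.18 (edgeR adjusted p = 0.000145), from -0.83 with PA and 0.35 with LA. Gstz1 gave -0.60 (edgeR adjusted p = 0.000717), from -0.62 with PA and -0.018 with LA. Ftcd gave -0.70 (edgeR adjusted p = 0.00622), from -0.81 and -0.11. Aass gave -0.59 (edgeR adjusted p = 0.0189), from -0.11 and 0.48. Tdo2 gave -0.63 (edgeR adjusted p = 0.0194), from 0.11 and 0.74. Uroc1 gave -2.12 (edgeR adjusted p = 0.0422), from -2.36 and -0.23, and Hgd gave -0.98 (edgeR adjusted p = 0.0484), from -0.79 and 0.19. Of these, Acmsd alone kept its call in each of the 10 fits that left out 1 library. With the GC trend removed, Hgd and Aass were no longer called.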

How the results depend on the processing

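No called value of a named gene changed direction under any alternative: of 2288 values, 2142 kept their side of the threshold, 101 lost their call and 45 gained one. Of the values not called, 105 changed sign, in 41 of 100 pairs of gene and comparison, such as Arg1 with PA, between -0.97 and 1.29 as single libraries were left out. Under NOISeq's rule at 0.95, all counts of called genes were 0, and that rule recovered 21.5% of genes with a fold of 2 in simulated PA and Vehicle libraries. Causes of the changes were not tested, except that no fold threshold adds genes by its construction. For each setting, only counts that moved from the main result by more than 1.5 times, or to or from 0, are listed below. A count not listed stayed the same or close to it, such as 7 lower with PA after the GC trend was removed. Without the fold threshold the counts were 15 lower and 8 higher with PA, 6 and 11 with LA, 12 and 7 with NTP and PA, 12 and 12 with NTP and LA, 12 for PA+NTP against Vehicle, 18 for PA against LA and 23 for PA+NTP against LA+NTP. Of all genes, 52% with PA and 48.7% with LA had an unadjusted edgeR p under 0.05. Where no share over all genes under the same setting is given, a count shows only how the result depends on the setting. It says nothing about these genes beside others. limma on log2(FPKM + 1) called 4 lower and 1 higher with PA, 1 higher with LA, 1 lower with NTP and PA, 2 lower with NTP and LA, and 2 for PA against LA. limma on log2(FPKM + 0.1) called 1 higher with PA, 1 higher with LA, 1 lower with NTP and PA and 2 for PA against LA.

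With the GC trend removed, 1 gene was higher with PA (3.21% of all genes), and 0 were lower (2.51%) and 0 higher (1.04%) with LA. With NTP and LA, 0 were lower (1.99%) and 1 higher (4.19%). Library-size scaling gave 1 higher with LA and 1 lower with NTP and PA. No filter gave 1 higher with LA (2.82% of all genes) and 2 higher with NTP and PA (7.29%). It gave 9 lower for PA+NTP against Vehicle (1.68%) and 1 higher for LA+NTP against Vehicle (0.216%). For the difference between NTP effects it gave 1 lower (0.105%). A filter at a mean FPKM of 1 gave 1 higher with LA. DESeq2 called 4 lower for PA against LA (1.75% of all genes), and a fit of only the groups compared called 4 for PA+NTP against LA+NTP.

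The replicate numbers were not taken to pair the libraries, since over all tested genes the correlations of same-numbered deviations ran from -0.069 to 0.127 and 2 of 10 were over 0.1. For the 50 genes alone, the second library was the lower one for most genes in each group, which those correlations do not settle. The replicate block kept every call of the 4 main comparisons and added Uroc1 with NTP and PA, and Uroc1 and Bhmt with NTP and LA. It gave 2 higher with NTP and PA (8.64% of all genes). The replicate block with the GC trend removed gave 1 higher with PA (3.23%). With LA it gave 0 lower (2.62%) and 0 higher (1.07%), and with NTP and LA 0 lower (1.97%). That last fit also left Ftcd with PA (-0.58) and Fah with NTP and PA (0.58) just under the fold of 1.5.

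Leaving out 1 library gave 3 to 7 lower and 1 to 2 higher with PA, 1 to 2 lower and 1 to 3 higher with LA, 2 to 7 lower and 0 to 4 higher with NTP and PA, 2 to 5 lower and 3 to 6 higher with NTP and LA, 3 to 11 for PA+NTP against Vehicle, 0 to 0 for LA+NTP against Vehicle, 1 to 8 for PA against LA, 3 to 17 for PA+NTP against LA+NTP, and 0 to 0 for the difference between NTP effects. With 2 libraries a group, such fits assume that the lone library varies like the other groups. Genes read from few counts (Arg1, Haao, Uroc1, Sds) could show only large differences at this depth.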
